A study of Mus musculus with 9 samples.

Results

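The blocks described here are the 241 autosomal stretches of 1 Mb with the highest DNA methylation in mouse primordial germ cells, called high blocks below. They are the top 10% of 2410 autosomal blocks that held at least 1000 reads over CpG sites in each of 2 pools, ranked by the mean of the pools' methylation levels. A level is the percentage of reads over CpG sites that were methylated, and 1 kb windows with over 300 reads in the Tet1-null pool or over 200 in the WT pool were left out of it. The levels of both pools thus chose the high blocks, and their height is a description and not a finding. Another 7 autosomal blocks had too few reads, and with the X chromosome the series holds 2573 such blocks. The 2169 other autosomal blocks serve for comparison.

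The cells were primordial germ cells of female C57BL/6 embryos at embryonic day 13.5, either Tet1-null (Tet1-/-) or wild type (WT), studied by whole-genome bisulfite sequencing. The labels describe 5 Tet1-null libraries of 1400 to 4700 cells and 4 WT libraries of 1575 to 5251 cells, and do not say whether the libraries came from separate embryos. The files hold 1 pooled table per genotype, so each difference below is between 2 pools and has no replicate check. Intervals are 95% counting intervals (Wilson for a level, Newcombe for a difference), and reads amplified by PCR are not independent molecules, so they cover counting error only. The Tet1-null pool held 46716079 reads over 16372728 CpG sites, a mean of 2.85 reads per site, and the WT pool held 30386353 reads over 13730600 sites, a mean of 2.21. On chrM, read here as a background of unconverted cytosines, the level was 1.29% in the Tet1-null pool and 1.66% in the WT pool. Conversion kit and sequencing run cannot be told apart within a pooled table. The Tet1-null libraries are listed with sequencing runs 2 and 3, and the WT libraries with runs 1, 2 and 3. Run and genotype are thus not fully separable between the pools. Methylation reads carry no marker expression, so neither the cell type nor the deletion of Tet1 was checked here.

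Primordial germ cells are the precursors of eggs and sperm. As they settle in the gonad they erase most of the methylation at CpG sites, imprints included, and some sequences, above all copies of retrotransposons such as the intracisternal A particle (IAP), are known to keep part of it. TET1 is a dioxygenase that oxidises 5-methylcytosine, a step towards its removal, and bisulfite sequencing does not separate 5-methylcytosine from the 5-hydroxymethylcytosine that TET1 makes. Mammalian genomes are poor in CpGs except in CpG islands, which lie at many promoters and are mostly unmethylated.

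The sequences below show placed promoters inside high blocks at the high and low ends of promoter levels. The first 4 have the highest mean level among the placed promoters in high blocks with at least 10 reads in each pool. The last is the one with the most CpGs among those of them with no methylated read in either pool. Each is the 250 bases before a gene's start on the strand of the gene, from RefSeq (GRCm38.p6), with CpGs in capitals, and its mm9 position comes from a match of its CpG spacing to the sites in the tables. All 5 were chosen after their values were seen.
Gm35195, chr6:59647911-59648160, plus strand: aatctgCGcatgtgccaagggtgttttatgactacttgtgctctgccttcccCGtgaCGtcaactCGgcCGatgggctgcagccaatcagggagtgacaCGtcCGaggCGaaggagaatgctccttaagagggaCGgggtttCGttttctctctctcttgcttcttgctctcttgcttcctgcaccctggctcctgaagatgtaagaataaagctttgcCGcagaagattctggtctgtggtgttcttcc
Gm41318, chr15:49025938-49026187, plus strand: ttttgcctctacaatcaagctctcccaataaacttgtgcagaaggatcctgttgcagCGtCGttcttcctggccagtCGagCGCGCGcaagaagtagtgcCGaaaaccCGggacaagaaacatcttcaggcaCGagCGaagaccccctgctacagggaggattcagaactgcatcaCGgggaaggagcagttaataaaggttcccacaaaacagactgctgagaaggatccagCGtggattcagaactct
Gm38744, chr5:146645938-146646187, plus strand: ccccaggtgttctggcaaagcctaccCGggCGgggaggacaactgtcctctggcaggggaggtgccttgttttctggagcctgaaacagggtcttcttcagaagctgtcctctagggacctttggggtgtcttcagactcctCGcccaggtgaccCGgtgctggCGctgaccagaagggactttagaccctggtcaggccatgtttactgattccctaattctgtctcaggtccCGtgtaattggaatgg
Zfp616, chr11:73874149-73874398, plus strand: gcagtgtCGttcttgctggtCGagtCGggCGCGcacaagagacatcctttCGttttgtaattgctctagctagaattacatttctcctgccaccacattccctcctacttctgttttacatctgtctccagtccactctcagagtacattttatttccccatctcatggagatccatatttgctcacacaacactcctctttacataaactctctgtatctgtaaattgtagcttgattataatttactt
Fastkd3, chr13:68720837-68721086, plus strand: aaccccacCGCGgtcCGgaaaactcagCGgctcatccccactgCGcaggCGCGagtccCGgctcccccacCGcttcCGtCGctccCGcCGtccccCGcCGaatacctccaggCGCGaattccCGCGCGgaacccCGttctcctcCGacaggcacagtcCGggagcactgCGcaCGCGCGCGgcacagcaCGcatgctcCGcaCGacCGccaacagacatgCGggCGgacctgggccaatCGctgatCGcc

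Read counts at these promoters run over the printed stretch and the 50 bases after it. The promoter of Gm35195, a predicted gene, held 10 methylated reads of 11 in the Tet1-null pool (90.9%, interval 62.3 to 98.4%) and 9 of 11 in the WT pool (81.8%, 52.3 to 94.9%). That of Gm41318, another predicted gene, held 41 of 52 in the Tet1-null pool (78.8%) and 9 of 15 in the WT pool (60%). At least 30 stretches of 16 bases of the Gm35195 sequence recur, on either strand, in the promoters of 8 other genes in RefSeq's table of 27025 genes, and those of Gm41318 in the promoters of 9. The sequences of Gm38744 and Zfp616, a zinc finger gene, met that mark in no other gene. Gm38744 held 4 methylated reads of 11 in the Tet1-null pool and 4 of 10 in the WT pool, and Zfp616 held 5 of 18 and 8 of 17. Fastkd3, which encodes a mitochondrial RNA-binding protein, has 42 CpGs in this promoter and held 0 methylated reads of 48 in the Tet1-null pool, which allows a level of up to 6.25% by the limit of 3 reads of the total (Wilson upper bound 7.41%). The WT pool held 0 of 64, which allows up to 4.69% by that limit (Wilson upper bound 5.66%). Its block, chr13:68000001-69000000, was nevertheless among the high blocks, at 9.64% in the Tet1-null pool and 7.43% in the WT pool. A high block is therefore not methylated throughout.

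Over all high blocks, 7.93% of reads were methylated in the Tet1-null pool (interval 7.90 to 7.96%) and 7.53% in the WT pool (7.49 to 7.57%). The other blocks stood at 3.80% in the Tet1-null pool and 3.10% in the WT pool. Single high blocks ranged from 5.41 to 16.7% in the Tet1-null pool, with a median of 7.47%, and from 4.74 to 18.8% in the WT pool, with a median of 7.01%. The mean of the pools passed gradually across the threshold. The 3 blocks just inside had mean levels of 5.701% (chr2:138000001-139000000), 5.696% (chr4:20000001-21000000) and 5.685% (chr14:4000001-5000000). The 3 just outside had 5.682% (chr16:47000001-48000000), 5.679% (chr2:87000001-88000000) and 5.674% (chr10:48000001-49000000). The high blocks held 6.12% of the CpG positions listed on autosomes in eligible blocks, 11.8% of the methylated reads of the Tet1-null pool and 13.4% of those of the WT pool.

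Reads that did not choose the blocks gave much the same levels. When the top 10% were chosen on the even-numbered 1 kb windows alone and read on the odd-numbered ones, the chosen blocks stood at 7.72% in the Tet1-null pool and 7.38% in the WT pool, and the remaining blocks at 3.82% and 3.12% in those pools. A read that spans a window border can enter both sets of windows. Of these 241 blocks, 214 were also high blocks by all windows. Blocks chosen on the WT pool alone had a Tet1-null level of 7.84%, against 3.81% in the blocks not chosen, and 224 of them were high blocks. Blocks chosen on the Tet1-null pool alone had a WT level of 7.45%, against 3.11% in the blocks not chosen, and 223 were high blocks.

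The 10 high blocks with the highest mean level came from 5 chromosomes, and 6 of them lie together on chromosome 12. The highest of all was chr1:197000001-198000000 at the end of that chromosome, with 16.7% in the Tet1-null pool and 18.8% in the WT pool. It listed 1271 CpG positions in only 184 windows of 1 kb, against a median of 946 windows in high blocks. It holds the promoter of Cr2, which encodes a complement receptor of B cells. The next, chr4:60000001-61000000, had 16.4% in the Tet1-null pool and 15.9% in the WT pool. No promoter was placed inside it, and between its placed neighbours Snx30 and Zfp37 RefSeq lists 44 Mup genes and pseudogenes, which encode the major urinary proteins that carry pheromones. The block chr5:95000001-96000000 had 13.3% in the Tet1-null pool and 15.4% in the WT pool, and lies between Ccng2 and Cxcl13, where 18 Pramel genes are listed, relatives of a gene expressed in germ cells and tumours. The block chr7:33000001-34000000 had 13.6% in the Tet1-null pool and 13.3% in the WT pool, and holds Scgb1b12, a secretoglobin, one of a family of small secreted proteins. The 6 blocks on chromosome 12 ranged from 12.4 to 15.3% in the Tet1-null pool and from 12.3 to 15.7% in the WT pool. The medians of the other blocks were 3.77% in the Tet1-null pool and 3.04% in the WT pool. In all 10 blocks both pools lay far above them, which follows from the choice of blocks by level and is not a finding.

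The 2 pools differed less in the high blocks than elsewhere. The Tet1-null level was above the WT level by 0.396 points in the high blocks (interval 0.345 to 0.447), a ratio of 1.05, and by 0.703 points in the other blocks (0.694 to 0.711), a ratio of 1.23. The difference was thus smaller by 0.307 points in the high blocks. Block by block it averaged 0.384 ± 0.877 points over the high blocks and 0.699 ± 0.410 points over the others (SD over blocks, which are not replicates of a genotype). The Tet1-null level was the higher one in 170 of 241 high blocks (70.5%), against 95.6% of the other blocks and 93.1% of all eligible blocks. It exceeded the WT level by at least 25% of that level in 20 high blocks (8.30%), against 44.7% of the others and 41% of all. It fell short of the WT level by at least 20% of that level in 1 high block, against 0.0415% of all blocks. That block is chr5:11000001-12000000, with 5.86% in the Tet1-null pool and 7.33% in the WT pool. The counting interval of the difference lay above 0 in 76 high blocks (31.5%), below 0 in 19 (7.88%) and included 0 in 146 (60.6%). In the other blocks these counts were 1653 (76.2%), 9 (0.415%) and 507 (23.4%). High blocks hold fewer reads each and have higher levels, so the counting error of a single high block is larger. That widens its interval and adds to the spread over blocks. The rule used the levels of both pools, so these counts describe the blocks and test nothing. The difference in the high blocks was 0.214 points with deep windows kept, 0.217 at sites covered in both pools, 0.235 in the top 5% of blocks and 0.767 with each pool's chrM level subtracted. The other blocks differed by more in each of these settings. In the chrM setting this was fixed in advance, since 1 amount per pool is taken from every block.

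**Figure D1:**
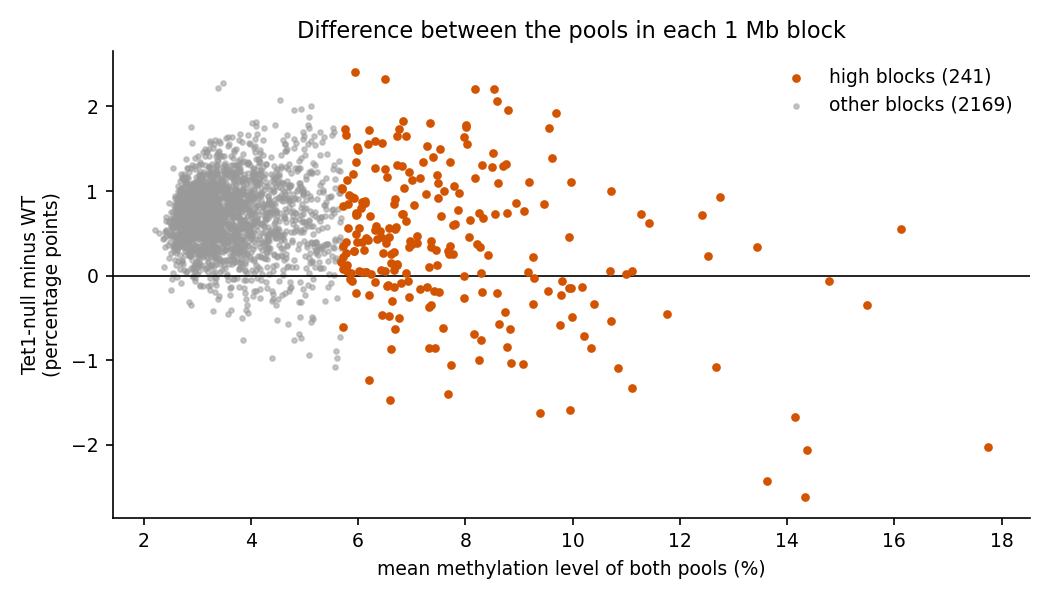
Difference of methylation level (Tet1-null minus WT, percentage points, vertical axis) against the mean level of both pools (percent, horizontal axis), 1 point per autosomal 1 Mb block, with the 241 high blocks in orange and the 2169 other blocks in grey. The other blocks lie mostly above the zero line, while the high blocks spread to both sides of it, from -2.61 to 2.41 points.

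The difference was smallest where the level was highest. The 80 high blocks with the highest mean level stood at 10.1% in the Tet1-null pool and 9.96% in the WT pool, a difference of 0.114 points (0.0129 to 0.216), and 42 of the 80 were higher in the Tet1-null pool. The next 80 differed by 0.515 points (0.429 to 0.601), with 60 higher, and the lowest 81 by 0.532 points (0.455 to 0.608), with 68 higher. Across deciles of all eligible blocks by mean level the ratio of the Tet1-null to the WT level was 1.27 in the lowest decile, 1.23 in the sixth, 1.14 in the ninth and 1.05 in the highest, which is the high blocks. In points the difference had its maximum in the middle, at 0.769 in the fifth decile, and was 0.624 in the lowest and 0.680 in the ninth. On reads that did not choose the blocks the difference was 0.334 points in blocks chosen on even windows, against 0.699 points in the rest, and 158 of 241 (65.6%) were higher in the Tet1-null pool, against 91.1% of the rest and 88.5% of all blocks.

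The extremes went both ways. The largest rise was in chr7:93000001-94000000, which holds Folh1, encoding a folate hydrolase, with 7.15% in the Tet1-null pool and 4.74% in the WT pool (difference 2.41 points, 1.62 to 3.18). It was followed by chr1:103000001-104000000, between Cntnap5b and Gm41925, with 7.66% in the Tet1-null pool and 5.34% in the WT pool. The block chr9:6000001-7000000 holds Pdgfd, encoding a platelet-derived growth factor, and had 9.28% in the Tet1-null pool and 7.07% in the WT pool. The 5 largest rises also included the Fastkd3 block and chr6:68000001-69000000, which lies in the immunoglobulin kappa variable genes (Igkv), with 9.62% in the Tet1-null pool and 7.55% in the WT pool. Among these 5 blocks every interval lay above 0.

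The largest fall was in chr12:18000001-19000000, which holds the zinc finger gene Zfp996, with 13.0% in the Tet1-null pool and 15.6% in the WT pool (difference -2.61 points, -3.61 to -1.62). On the same chromosome, chr12:24000001-25000000 had 12.4% in the Tet1-null pool and 14.8% in the WT pool (-2.43 points, -3.43 to -1.45), and chr12:23000001-24000000 had 13.3% and 15.0% in those pools (-1.67 points, -2.92 to -0.432). The Pramel block of chromosome 5 differed by -2.06 points (-4.03 to -0.158) and the Cr2 block of chromosome 1 by -2.03 points (-4.15 to 0.0612), an interval that includes 0. All 5 of the largest falls were thus among the 10 highest blocks, while the 5 largest rises ranked 62 to 215 of 241 by level.

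The high blocks lay unevenly along the genome. Chromosome 7 held 25 among its 140 eligible blocks (17.9%), chromosome 6 held 21 of 147 (14.3%) and chromosome 4 held 21 of 153 (13.7%). The lowest shares were 5 of 127 on chromosome 10 (3.94%), 4 of 96 on chromosome 16 (4.17%) and 5 of 119 on chromosome 11 (4.202%). All mouse autosomes have their centromere at the end where counting starts. Of the 95 blocks that are among the first 5 eligible of their chromosome, 34 were high (35.8%), against 6 of the 95 last ones (6.32%). By position along the chromosome, cut into 3 equal parts, 17.5% of blocks were high in the part nearest the centromere, 8.61% in the middle and 4.06% in the part farthest from it.

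**Figure D2:**
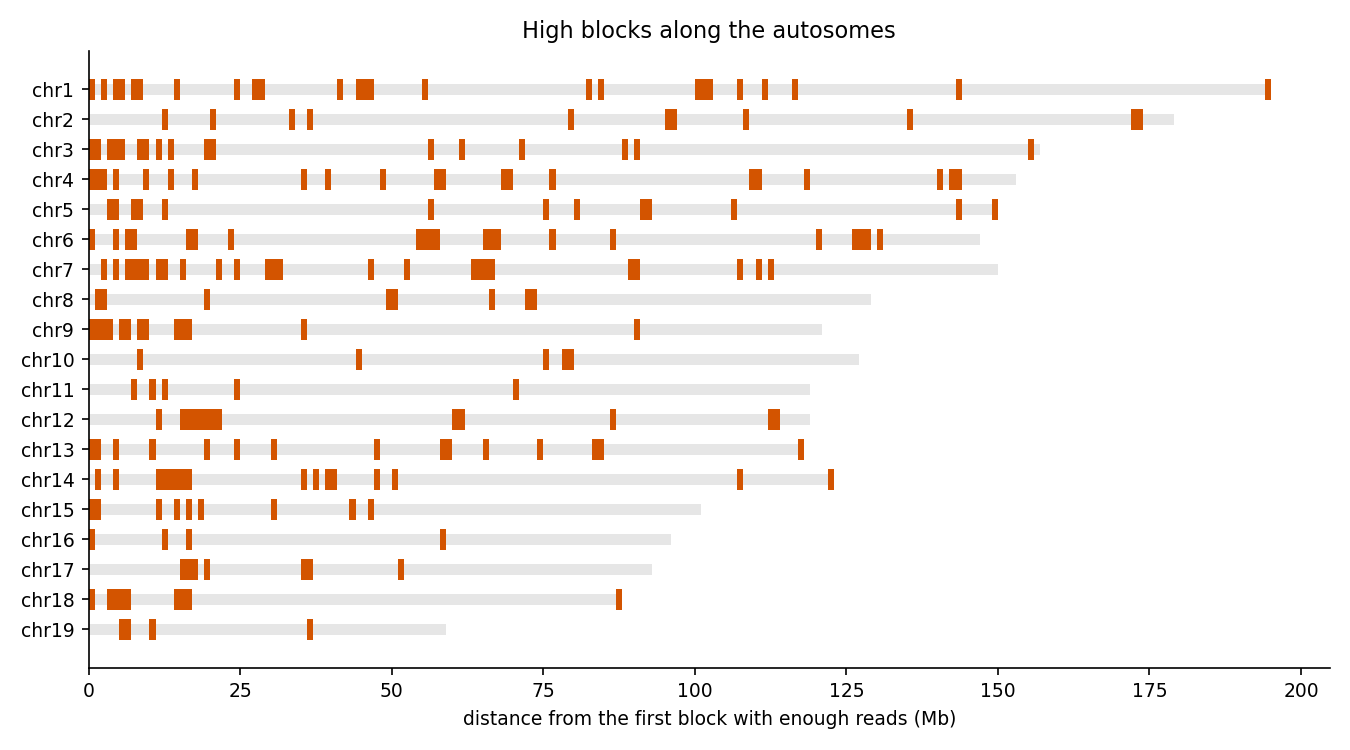
Places of the 241 high blocks (orange) along the 19 autosomes (grey bars, 1 per chromosome), as distance from the first block with enough reads in Mb. The high blocks crowd towards the left, centromeric end and form runs, the longest on chromosomes 12 and 14.

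High blocks were often next to each other. Of the 462 eligible neighbours of high blocks, 160 were themselves high (34.6%), against 10% of all blocks. The 241 blocks formed 161 separate stretches, of which 110 were single blocks, 34 were pairs, 10 held 3 blocks, 5 held 4, 1 held 6 and 1 held 7. Altogether 131 high blocks (54.4%) had a high neighbour. The neighbours that were not high were also above the rest. Blocks at 1 Mb from a high block had 4.28% in the Tet1-null pool and 3.66% in the WT pool. Blocks at 5 Mb or more had 3.71% and 2.99% in those pools. The blocks at 1 Mb also listed fewer CpG positions, a median of 5896.5 against 8151 at 5 Mb or more. Whether the CpG count accounts for this gap in level was not tested. Levels of adjacent blocks had a Pearson r of 0.448 in the Tet1-null pool and 0.463 in the WT pool over 2385 pairs, a description of blocks that share libraries and CpG content.

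**Figure D3:**
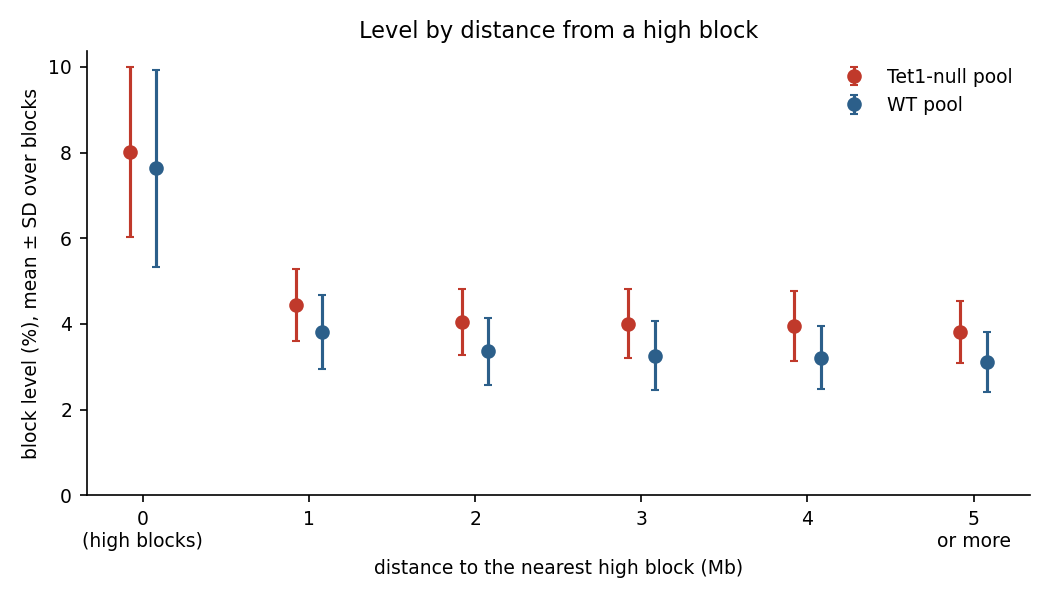
Methylation level of 1 Mb blocks (percent, mean ± SD over blocks) in the Tet1-null pool (red) and the WT pool (blue) by distance in Mb to the nearest high block, with high blocks at 0. The high blocks had means of 8.02% and 7.63%, and their direct neighbours 4.44% and 3.82%. The rule creates this step, since every block at 1 Mb or more lies below the threshold.

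The longest run, chr12:18000001-25000000, covered 7 blocks and stood at 12.04% in the Tet1-null pool and 12.9% in the WT pool, a difference of -0.823 points (-1.18 to -0.471), with 2 of the 7 blocks higher in the Tet1-null pool. Its 2 flanking blocks had 4.43% in the Tet1-null pool and 4.36% in the WT pool. Named genes with a placed promoter in it were few, among them Zfp996, Cpsf3, encoding the endonuclease that cleaves pre-mRNA 3' ends, and Ywhaq, encoding a 14-3-3 protein. Adam17, encoding a protease that sheds membrane proteins, falls in it by gene order. The run was uneven: its block chr12:21000001-22000000, where Cpsf3 and Ywhaq were placed, had 6.40% in the Tet1-null pool and 5.98% in the WT pool, below the other 6. The run chr14:14000001-20000000 of 6 blocks was the opposite case. It stood at 6.84% in the Tet1-null pool and 6.19% in the WT pool (difference 0.654 points, 0.381 to 0.926), with 6 of 6 blocks higher, and held the nuclear receptor genes Rarb, Thrb and Nr1d2.

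The run chr7:9000001-13000000 of 4 blocks stood at 10.6% in the Tet1-null pool and 10.96% in the WT pool (difference -0.385 points, -0.909 to 0.133). It held the Zscan4 genes, which are expressed around the activation of the embryonic genome, beside Vmn1r genes for vomeronasal receptors. The run chr9:3000001-7000000 of 4 blocks, at the centromeric end, stood at 9.27% in the Tet1-null pool and 8.38% in the WT pool (0.891 points, 0.484 to 1.29) and held the inflammatory caspase genes Casp1, Casp4 and Casp12 and the glutamate receptor gene Gria4. The run chr7:66000001-70000000 of 4 blocks stood at 7.50% in the Tet1-null pool and 7.63% in the WT pool (-0.128 points, -0.529 to 0.268). It held the imprinted genes Snrpn, Ube3a, Magel2, Ndn, Mkrn3 and Peg12, the mouse counterpart of the Prader-Willi and Angelman region, and the Mir344 cluster of microRNA genes. These 3 runs of 4 blocks have the highest mean levels among 5 runs of that length. The other 2 are chr18:6000001-10000000, with 7.40% in the Tet1-null pool and 6.50% in the WT pool (0.894 points, 0.547 to 1.24), and chr6:57000001-61000000, with 7.04% in the Tet1-null pool and 6.23% in the WT pool (0.802 points, 0.450 to 1.15). Of the 7 runs of at least 4 blocks, 4 had an interval above 0, 1 had one below 0 and 2 had one that included 0.

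High blocks were poor in CpGs, a feature the rule did not use. The median high block listed 4433 CpG positions in either pool, against 7586 in the other blocks, a ratio of 0.584, and the quartiles were 3998 and 5193 in high blocks, against 5472 and 9721 in the others. By CpG count, 194 of the 241 (80.5%) fell in the 3 lowest deciles of eligible blocks and 235 (97.5%) in the 5 lowest. The share of blocks that were high was 31.5% in the decile with the fewest CpGs, 12.9% in the fourth and at most 0.415% from the seventh upwards. The highest CpG count was 11597, in chr10:82000001-83000000. The positions listed were covered alike. High blocks held 2.45 reads per listed position in the Tet1-null pool and 1.59 in the WT pool, against 2.48 and 1.62 in the other blocks. Positions with no read in either pool are not listed, so the counts are lower bounds. Blocks with few windows enter the deciles as full blocks. Per window with a listed position, high blocks held 5.11 positions and the others 8.02.

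**Figure D4:**
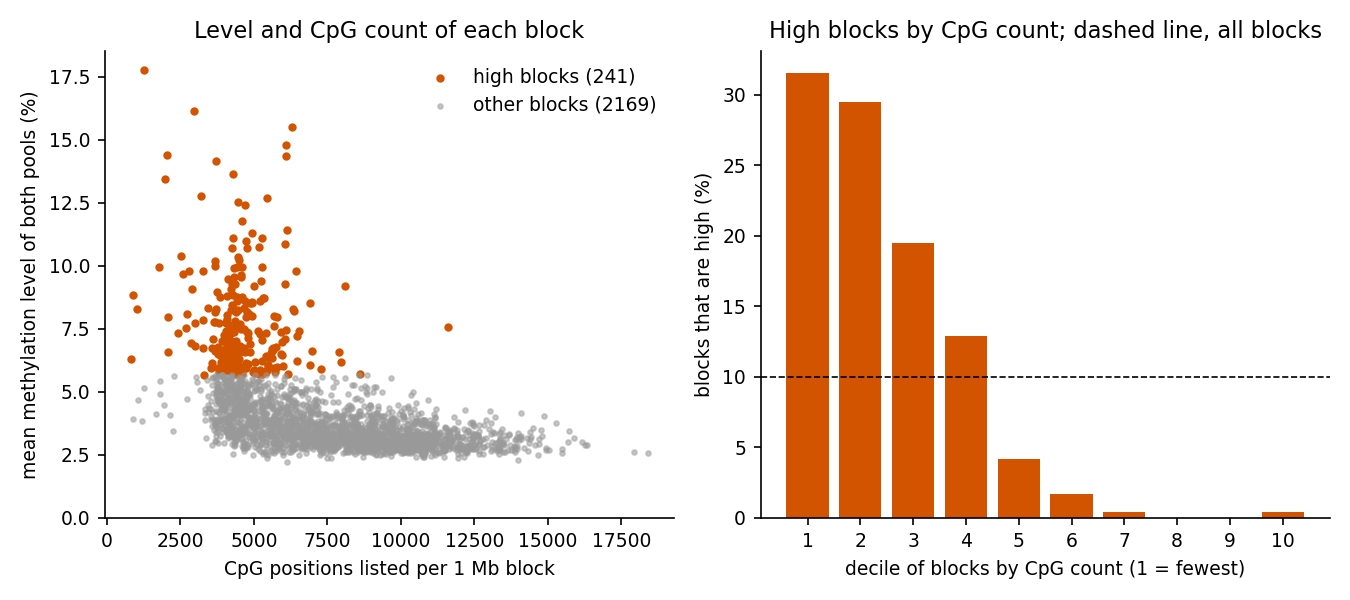
Left, mean methylation level of both pools (percent) against the number of CpG positions listed, 1 point per autosomal 1 Mb block, high blocks in orange and other blocks in grey. Right, percentage of blocks that are high in each decile of CpG count, with a dashed line at the 10% of all blocks; the share is 31.5% in the lowest decile.

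The threshold places every high block above every other block at any CpG count, so the sizes of the gaps below are a description. In the decile with the fewest CpGs, the high blocks had 7.98% in the Tet1-null pool and 7.55% in the WT pool, and the other blocks of that decile 4.78% and 4.13% in those pools. In windows of 1 kb the gap varied with the CpG class. With 1 to 9 listed CpGs, windows of high blocks had 4.69% in the Tet1-null pool and 4.52% in the WT pool, against 3.23% and 2.74% in windows of other blocks. With 10 to 19 CpGs the levels were 13.1% and 12.7% in high blocks, against 4.05% and 3.17%. With 20 to 39 CpGs they were 26.2% and 25.6%, against 5.92% and 4.73%, and with 40 to 59 CpGs 13.5% and 13.3%, against 2.77% and 2.84%. Windows with 60 or more CpGs, the class in which strong CpG islands fall, had 2.32% in the Tet1-null pool and 2.48% in the WT pool in high blocks, against 2.09% and 2.57% in other blocks. The high blocks thus stood 4.42 times above the others in the Tet1-null pool and 5.41 times in the WT pool at 20 to 39 CpGs, and 1.11 and 0.964 times at 60 or more.

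**Figure D5:**
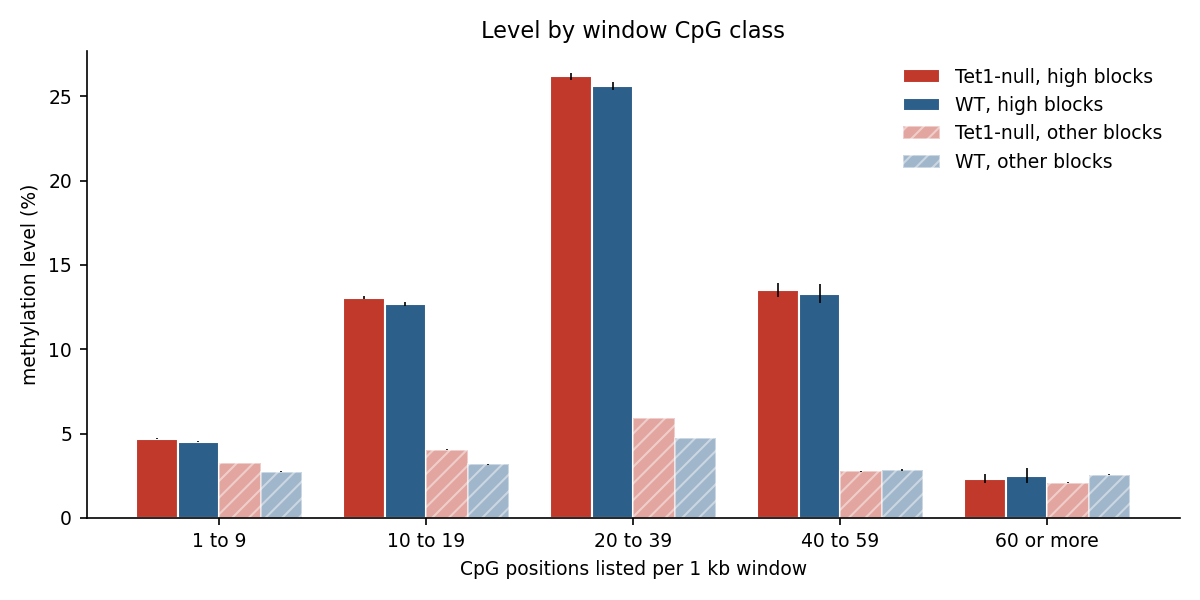
Methylation level (percent, bars from 0, error bars 95% counting intervals) of 1 kb windows by the number of CpG positions they list, in the Tet1-null pool (red) and the WT pool (blue), for high blocks (solid) and other blocks (pale, hatched). The high blocks peak at 26.2% and 25.6% in windows with 20 to 39 CpGs and meet the other blocks in windows with 60 or more.

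In windows with fewer than 40 CpGs the difference between the pools was smaller in high blocks than in others. At 1 to 9 CpGs it was 0.168 points (0.121 to 0.215) in high blocks and 0.488 points (0.4758 to 0.4996) in others. At 10 to 19 CpGs it was 0.380 points (0.239 to 0.520) and 0.878 points (0.864 to 0.892), and at 20 to 39 CpGs 0.564 points (0.232 to 0.896) and 1.19 points (1.16 to 1.23). The denser classes did not follow this. With 40 to 59 CpGs the difference was 0.230 points in high blocks (-0.482 to 0.932) and -0.0766 points in others (-0.138 to -0.0156), and with 60 or more it was -0.155 points (-0.681 to 0.326) and -0.483 points (-0.553 to -0.414). In both denser classes the interval of the high blocks included 0 and that of the others lay below 0.

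In windows with at least 10 reads in each pool, methylated reads were gathered in a minority. High blocks hold 215135 windows in all and other blocks 2100723, so this minimum kept a smaller part of the windows of high blocks. Among 51814 windows of high blocks with at least 10 reads in each pool, 10.8% had a mean level of 20 to under 50% and 1.56% had 50% or more, against 1.63% and 0.207% of 1023226 such windows in other blocks. Those at 20 to under 50% held 47.2% and those at 50% or more 14.4% of the methylated reads in such windows of high blocks, against 16.2% and 4.45% in other blocks. No methylated read was seen in 33.5% of the windows of high blocks and 41.2% of those of others. Windows under 20% were also higher in high blocks, at 4.89% in the Tet1-null pool and 4.35% in the WT pool, against 3.18% and 2.49% in other blocks. The 10 windows with the most methylated reads held a median of 26.2% of a high block's methylated reads, against 18.1% in other blocks. They also held a larger share of all reads, a median of 4.78% in high blocks and 2.31% in others. The larger share of methylated reads therefore does not show a stronger concentration in high blocks. Without those 10 windows the median high block had 5.67% in the Tet1-null pool and 5.42% in the WT pool. The other blocks had 3.14% and 2.57% in those pools. The reads of all these windows also chose the blocks, so the window levels here are a description and test nothing.

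Genes that could be assigned to high or other blocks were sparser in high blocks. Leaving out chromosome 18, for which no promoter was placed, RefSeq's gene order put 8.57 genes per block in high blocks and 18.0 in others. High blocks held 5.03% of all assigned genes, 5.30% of protein-coding genes, 9.44% of pseudogenes and 2.29% of long non-coding RNA genes. Of 289 gene families with at least 10 assigned genes, grouped by the letters of the symbol after the values were seen, 8 had at least 50% of those genes in high blocks. A further 6170 genes could not be assigned to blocks of 1 kind, so the genes per block are lower bounds in both sets. Whether these genes would close the gap in genes per block was not tested. The counts below are also of assigned genes. Clusters were hit unequally: assigned were 180 of 369 Vmn1r, 167 of 251 Vmn2r, 25 of 46 Pramel and 31 of 52 Scgb genes and pseudogenes. Families of neighbouring genes share blocks, so their members are not separate observations.

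The 8 families are clusters of duplicated genes, a trait that is not particular to them. Of the 289 families, 178 had no assigned gene in high blocks. Among these are other clustered families, such as Krtap (0 of 56 assigned genes), Klk (0 of 37) and Defb (0 of 36). The Klra genes, which encode Ly49 receptors of natural killer cells, had 14 of 14 assigned genes in high blocks, and the Mrgprb genes, G protein-coupled receptors that include one of mast cells, had 11 of 11. The Prl genes, placental relatives of prolactin, had 20 of 21, and the Scgb genes 29 of 31. Among Pramel genes 19 of 25 lay in high blocks, and among Akr genes, aldo-keto reductases, 9 of 17. The receptors of the vomeronasal organ, which senses pheromones, were the most numerous, with 123 of 167 Vmn2r and 131 of 180 Vmn1r genes. The Olfr genes for odorant receptors, also a family of clusters, had 217 of 1058 (20.5%) and the Zfp genes 44 of 368 (11.96%).

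The pools differed by varied amounts over the high blocks to which these families were assigned, and the counting interval lay above 0 in 4 of the 8 families and included 0 in the other 4. A block counts for a family if it holds the placed promoter of an assigned gene, or lies between that gene's placed neighbours, their own blocks included. A counted block need not itself hold a gene of the family. High blocks beside which family genes are listed but were not assigned are left out of these sums. Among them are chr7:32000001-33000000 (Scgb, difference 0.235 points) and chr7:12000001-13000000 (Vmn1r, 0.0147 points). The 17 blocks with Vmn2r genes had 8.17% in the Tet1-null pool and 7.83% in the WT pool (difference 0.341 points, 0.151 to 0.529), and 10 of 17 were higher in the Tet1-null pool. The 10 blocks with Vmn1r genes had 8.15% in the Tet1-null pool and 7.83% in the WT pool (0.316 points, 0.0820 to 0.549), with 6 of 10 higher. The single block with assigned Pramel genes, chr4:143000001-144000000, differed by more, at 11.2% in the Tet1-null pool and 10.2% in the WT pool (0.995 points, 0.124 to 1.85). The Pramel block of chromosome 5 named above went the other way (-2.06 points, -4.03 to -0.158), and its genes were not assigned. The 2 blocks with Akr genes had 9.09% in the Tet1-null pool and 8.39% in the WT pool (0.696 points, 0.199 to 1.19). Among the families whose interval included 0, the single block with Mrgprb genes had 8.61% in the Tet1-null pool and 7.88% in the WT pool (0.736 points, -0.108 to 1.56). The 3 blocks with Scgb genes had 10.5% in the Tet1-null pool and 9.95% in the WT pool (0.496 points, -0.0183 to 1.00), and the 2 with Prl genes had 7.02% and 6.70% in those pools (0.317 points, -0.178 to 0.804). The 3 blocks with Klra genes had 6.40% in the Tet1-null pool and 6.53% in the WT pool (-0.133 points, -0.646 to 0.372), with 0 of 3 higher.

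Promoters inside high blocks were mostly low. Of 194 placed promoters with at least 10 reads in each pool, 148 (76.3%) had a mean level under 5%, against 84.1% of 7174 promoters in other blocks, and the medians were 1.52% and 1.39%. A level of 20% or more was reached by 8 of the 194 (4.12%), against 45 of the 7174 (0.627%). With 20 or more CpGs, promoters in high blocks summed to 3.16% in the Tet1-null pool (2.73 to 3.66%) and 2.08% in the WT pool (1.57 to 2.76%), against 2.07% and 2.53% in other blocks. With 12 to 19 CpGs they stood at 5.05% and 4.18%, against 2.34% and 2.39%, and with 6 to 11 CpGs at 5.30% and 4.17%, against 3.26% and 2.48%. With 3 to 5 CpGs the levels were 3.27% and 3.21% in high blocks, against 2.92% and 2.47%. The placement needs the CpGs of the reference to be covered in the tables, so repeated promoters are under-represented.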

How the data were processed

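Per the labels' protocols, libraries were made by Tn5 tagmentation, bisulfite conversion with 1 of 2 kits and PCR, and were run on a HiSeq instrument. The authors deposited a single pooled table for each genotype. As deposited, libraries were already pooled: for every CpG the authors give the methylated fraction and, in a column without a name, a whole number read here as the count of reads. Multiplying both gave whole methylated reads at 100% of sites (tolerance 0.0005 per read). A filter the authors deposited discards a read when more than 1.2% of its bases are cytosines outside CpGs, which can lower levels in both pools. Build mm9 and bedtools are named per the submitters' processing notes, while aligner and duplicate handling are not given in the sources used.

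Reads were summed per 1 kb window and 1 Mb block with Python 3.11.15, numpy 2.4.6 and pandas 2.3.3. Intervals were computed with numpy, and figures were made with matplotlib 3.10.9. Coordinates count from 1. The rule and lists were chosen with earlier results of these data known. Blocks were named by rank: the 10 highest, the 5 longest runs (ties by mean level), the 5 largest and 5 smallest differences, and 3 on either side of the threshold. With 1 pool per genotype no test was run. The summing was tested on simulated data. Alternatives varied the deep windows, read minimum, share taken, weighting of sites, block borders, the reads that chose the blocks and the depth of the Tet1-null pool.

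Gene names in blocks had been planned only with an mm9 annotation, which was not used here. Instead, after the values were seen, RefSeq promoters (GRCm38.p6, 250 bases before to 50 after a start) were matched by CpG spacing to the listed sites, with numba 0.67.0. A promoter with at least 6 CpGs needed 1 place on its chromosome with at least 80% of its CpGs listed and no other listed site, and one with at least 3 a place between placed neighbours. A place was kept where its offset lay within 10 kb of that of another gene nearby. Of 31396 autosomal promoters 16735 were kept, for 14399 of 25748 genes. Other genes took the block kind of both placed neighbours in RefSeq's order. Repeats were not analysed here.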

Additional observations from a re-analysis of the deposited data

Results flagged for a closer look

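Signal appeared in data outside the autosomal blocks. On chrM the level was 1.29% of 63081 reads in the Tet1-null pool and 1.66% of 33263 reads in the WT pool, a difference of -0.371 points (counting interval -0.537 to -0.211), opposite in sign to that of the high blocks. On chrY, in pools labelled female, 12.4% of 2418 reads were methylated in the Tet1-null pool and 11.9% of 915 reads in the WT pool. On the X chromosome 77 of 163 eligible blocks had a mean level at or above the threshold of the autosomal high blocks. Over all X blocks the level was 5.84% in the Tet1-null pool and 5.50% in the WT pool, a difference of 0.340 points (0.288 to 0.392), and the median X block listed 4393 CpG positions.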

How the results depend on the processing

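No paired analysis was possible because each genotype has 1 pooled table, and leaving out libraries was not run for the same reason. No alternative turned the direction of any of the 4 main results, and 42 of 60 values stayed within the interval (for the CpG ratio, 1 SD over blocks) of the value reported. The difference in high blocks (0.396 points) became 0.214 with deep windows kept, 0.235 in the top 5%, 0.554 in the top 20%, 0.548 with sites weighted equally, 0.217 at sites covered in both pools and 0.334 when chosen on even windows and read on odd ones. Blocks chosen on the WT pool alone gave 0.286 and on the Tet1-null pool alone 0.506, choices that by construction favour blocks where that pool is high. It was 0.517 without windows at 50% or more. The share of high blocks higher in the Tet1-null pool (70.5%) became 59.2% in the top 5%, 79.5% in the top 20%, 60.6% at sites in both pools and 76.3% without windows at 50% or more. The share in runs (54.4%) became 38.3% in the top 5% and 68.5% in the top 20%, where fewer or more blocks can be neighbours. A further 3 settings were added after seeing the data. Subtracting each pool's chrM level gave a difference of 0.767 points and 84.2% of blocks higher. The gap to the other blocks stayed at 0.307 points by construction, since 1 amount per pool is taken from every block. Among the 5 lowest deciles of CpG count the CpG ratio was 0.840. Leaving out the first 5 blocks of each chromosome moved no result out of its interval. In each of the 16 alternatives the difference was smaller in high blocks than in the others, by 0.151 to 0.488 points. For the chrM setting this was fixed in advance. Other causes were not tested. Depth limits single blocks most: 22 high blocks had fewer than 5000 reads in the WT pool.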
